A study of Drosophila melanogaster with 4 samples.

Results

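The genes described here encode proteins of the mitochondrial ribosome. They were chosen by name, as every row of the expression table whose symbol begins with mRpL (large subunit) or mRpS (small subunit), and they number 72 of 13012 genes, of which 46 are mRpL and 26 are mRpS genes. Expression was measured by RNA-seq of dissected thoraces of female Drosophila aged 10 days on a high calorie diet, with 8 thoraces pooled in a library. The 4 libraries combine a pair of genotypes, Act88FGS>UAS-MEF2 RNAi and Act88FGS>w1118, with RU486 or with its ethanol vehicle (here -RU486), and each of these conditions has 1 library. All flies therefore carried the Act88FGS driver, a GAL4 fusion that acts in flight muscle when the fly is fed RU486, and the w1118 flies carried no RNAi transgene. MEF2 is a transcription factor of muscle genes. The thorax also holds gut, fat body, nerve and blood cells, so that a lower value can mean fewer cells of a type or less RNA per cell, and these cannot be told apart. With 1 library in each condition no difference below could be set against the spread between replicates, and none was tested.

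Mitochondria keep a small genome that encodes a few subunits of the respiratory chain together with the RNAs of their own ribosome. All the proteins of that ribosome are encoded in the nucleus, made in the cytosol and imported. Most of them have a counterpart in the bacterial ribosome, and others were added in the course of mitochondrial evolution. The large subunit joins amino acids at the peptidyl transferase centre and passes the growing chain through an exit tunnel that faces the inner membrane, and the small subunit reads the messenger RNA. Flight muscle is among the tissues richest in mitochondria.

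The deposited values are on a log2 scale and are centred for each gene, so that the 4 values of a gene add up to 0 and give no expression level. Only differences between libraries can be read from them. The libraries also differed as a whole. Over the whole table, MEF2 RNAi flies had a median of -0.18 with RU486 and 0.19 without it, and w1118 flies had 0.17 and -0.18. The main results are therefore given on the deposited scale and then relative to all genes, after subtraction of these library medians. Results for single genes, for parts of the set and for other gene lists are mostly given on the deposited scale only. Subtraction of the library medians adds 0.36 to every RU486 effect in MEF2 RNAi flies and -0.35 to every one in w1118 flies. A further reference is the set of 86 cytosolic ribosomal protein genes, whose medians add 0.47 and -0.49. Mef2 itself, the target of the RNAi, had values of -0.38, 0.25, 0.22 and -0.098 in the same order of libraries. Relative to all genes its RU486 effect was -0.26 in MEF2 RNAi flies and -0.026 in w1118 flies, and relative to the cytosolic ribosomal proteins it was -0.16 in both. Of 30 germline marker genes, 24 were highest in the MEF2 RNAi library with RU486, as were 3.97% of all genes, with a median RU486 effect of 0.56 there and 0.17 in w1118 flies. Their effects in MEF2 RNAi flies ran from -0.92 to 2.37. That same library was the lowest for 21 of 29 muscle, 10 of 10 neuron, 7 of 11 gut, 2 of 10 fat body and 1 of 8 hemocyte marker genes, against 48.2% of all genes. MEF2 RNAi flies without RU486 were the highest for 8 of 10 fat body, 6 of 8 hemocyte, 10 of 29 muscle, 2 of 11 gut and 0 of 10 neuron marker genes, against 49.3% of all genes. The part of any of these lists in the results below was not tested, and because the table holds no levels it cannot be said whether the defining markers of a cell type were present or absent.

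Before rescaling, the mitochondrial ribosomal protein genes were lowest in MEF2 RNAi flies given RU486 and highest in MEF2 RNAi flies without it. Relative to all genes the genotypes lay close together with RU486, where MEF2 RNAi minus w1118 had a median of -0.015. On the deposited scale their median was -0.27 (range -0.49 to -0.095) in MEF2 RNAi flies with RU486, 0.32 (0.17 to 0.59) without RU486, 0.094 (-0.20 to 0.24) in w1118 flies with RU486 and -0.14 (-0.32 to 0.096) without it. On this scale the ranges of the MEF2 RNAi pair did not overlap, whereas those of the w1118 pair did. Relative to all genes the MEF2 RNAi ranges did overlap, at -0.31 to 0.084 with RU486 and -0.011 to 0.40 without it. On the deposited scale all but 1 of the 72 genes were highest in MEF2 RNAi flies without RU486, against 49.3% of all genes. In MEF2 RNAi flies with RU486 61 were lowest, against 48.2%. The exception was mRpS29, the GTP-binding protein called DAP3 in humans, with values of -0.20, 0.20, 0.24 and -0.24. It was highest in w1118 flies with RU486.

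**Figure D1:**
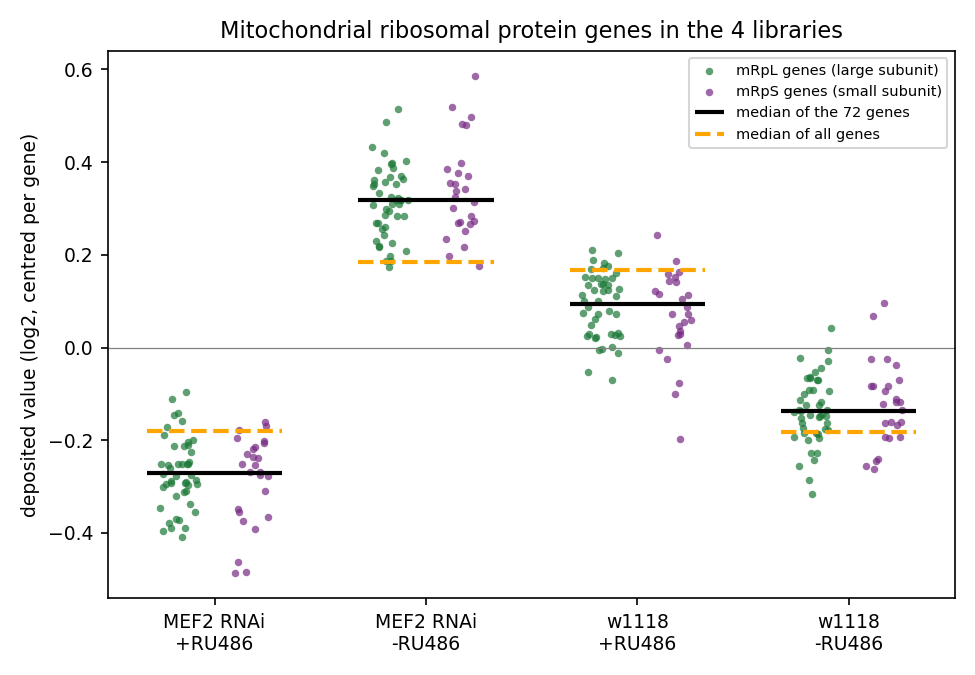
Deposited log2 value of each of the 72 genes (points) in each of the 4 libraries, with mRpL genes in green and mRpS genes in purple. The black line is the median of the 72 genes and the dashed orange line the median of all 13012 genes. The median of the 72 genes lies below the all-gene median with RU486 in both genotypes and above it without RU486.

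The order of the 4 libraries was shared by most members. In 57 of the 72 genes it ran, from low to high, MEF2 RNAi with RU486, w1118 without it, w1118 with it and MEF2 RNAi without it, an order found in 23.1% of all genes. A further 10 genes (mRpL11, mRpL15, mRpL22, mRpL32, mRpL35, mRpL43, mRpL51, mRpS2, mRpS10 and mRpS26) had the lowest value in w1118 flies without RU486, and 21.4% of all genes had that order. The remaining order with more than 1 member, in which RU486 went with the lower value in both genotypes, was that of mRpL54, mRpS5, mRpS7 and mRpS21 and of 2.79% of all genes. The gap between the highest and the lowest library had a median of 0.58 over the members and ran from 0.37 to 1.07, and over all genes its median was 0.49.

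**Figure D2:**
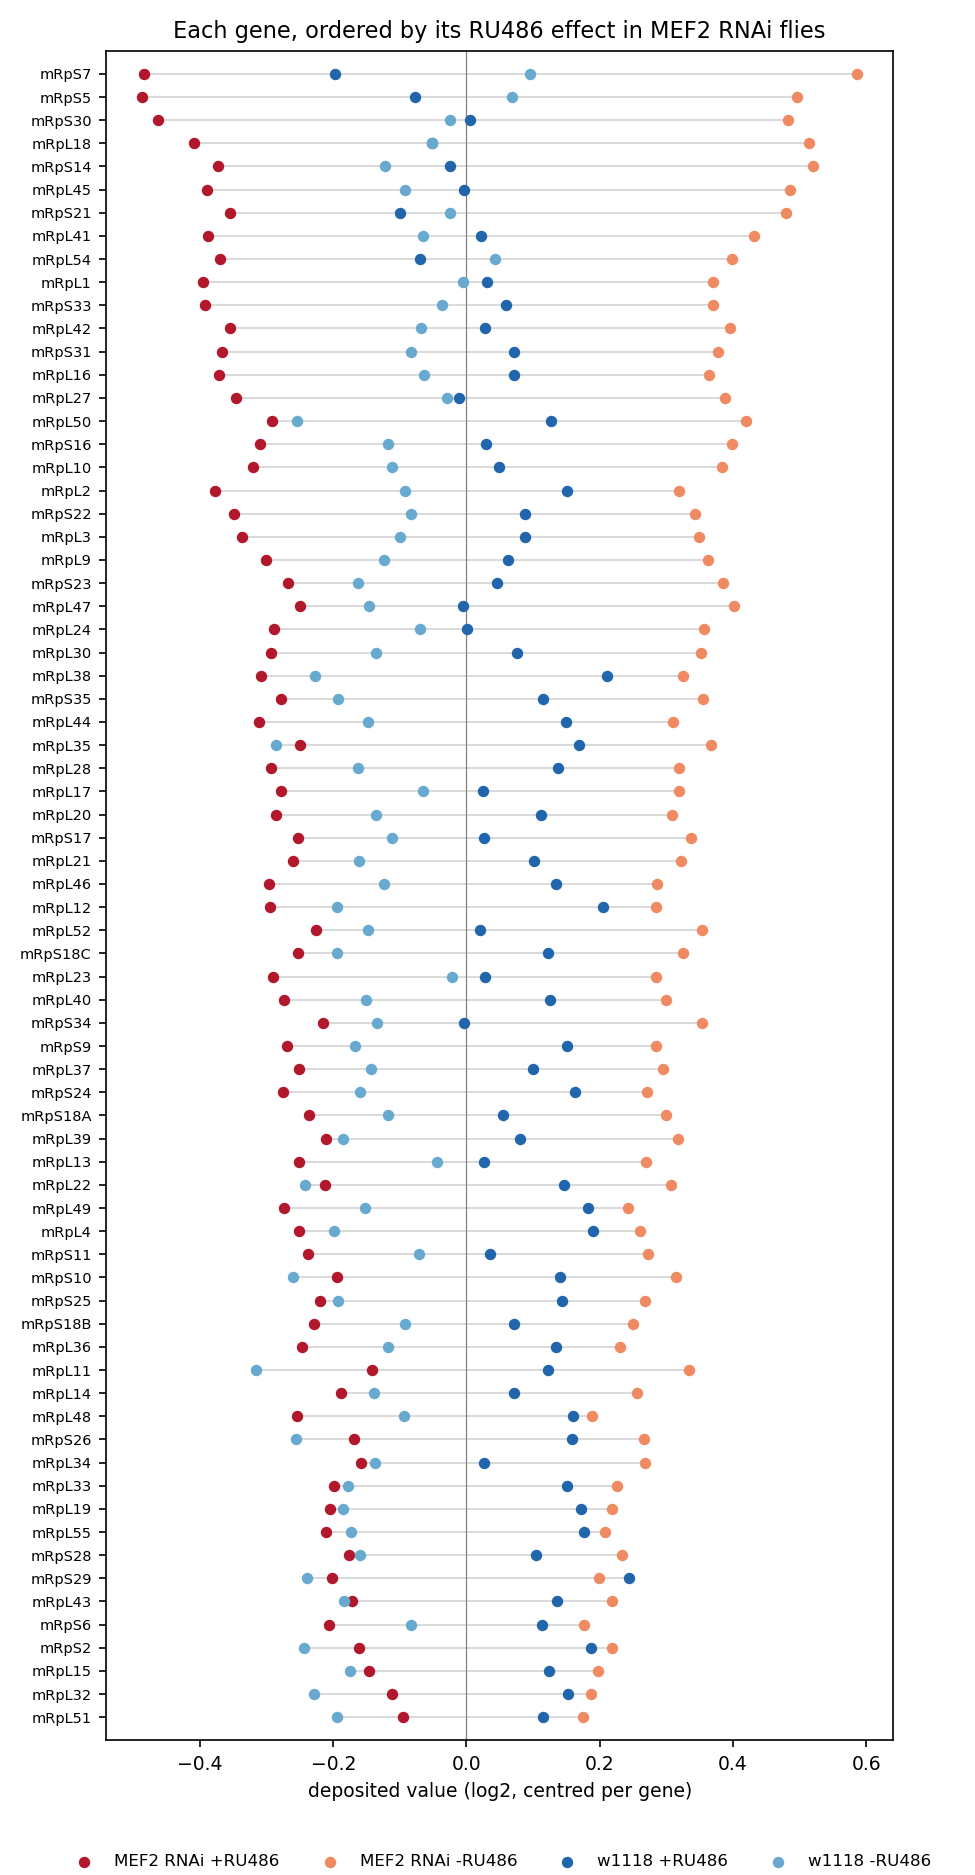
Deposited log2 value of every one of the 72 genes in the 4 libraries (coloured points), with genes ordered from the lowest RU486 effect in MEF2 RNAi flies at the top to the highest at the bottom. From mRpS7 to mRpL51 the distance between the MEF2 RNAi libraries narrows from 1.07 to 0.27, and in the top rows the w1118 points lie close together or in reverse order.

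With RU486, the value of every one of the 72 genes was lower in MEF2 RNAi flies, which was also so for 88.9% of all genes. The median RU486 effect, the value with RU486 minus the value without it, was -0.58 (quartiles -0.70 and -0.49), against -0.38 over all genes. The fold limit used here is a fold change of 0.65 or less in MEF2 RNAi flies and above 0.65 in w1118 flies, after the limit in the study, which asks for no down-regulation in controls and gives no number for it. By this limit 29 of the 72 genes were lower, or 40.3%, against 6.96% of all genes. The 29 include mRpS7, mRpS5, mRpL54 and mRpS21, whose fold changes in w1118 flies were 0.816, 0.904, 0.925 and 0.949. Under a reading that allows no lower value at all in w1118 flies, 25 members passed, against 6.16% of all genes. None was higher by its counterpart of 1.5 or more, which 0.576% of all genes passed. The limit ran through a continuous series of values. Just inside it lay mRpL44 with a fold change of 0.6498, mRpS35 with 0.645 and mRpL38 with 0.644, and just outside it mRpL35 with 0.652, mRpL28 with 0.654 and mRpL17 with 0.661. After the libraries were set to the all-gene medians no member passed, and 0.300% of all genes did.

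No member was lower by the limit relative to the cytosolic ribosomal proteins either (0.0922% of all genes), and none was higher on either rescaled axis, where 1.64% and 2.95% of all genes were.

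The lowest effect belonged to mRpS7, a protein of the head of the small subunit that binds the 3′ domain of its RNA (chromosome 2L, 10386662 to 10387652, plus strand, in the BDGP6 annotation). Its values were -0.48 in MEF2 RNAi flies with RU486, 0.59 without it, -0.20 in w1118 flies with RU486 and 0.096 without it. Both RU486 libraries were thus below their partners, with effects of -1.07 (fold change 0.476) and -0.29. mRpS5, another small subunit protein of bacterial type, had values of -0.49, 0.50, -0.077 and 0.068 in the same order, with effects of -0.98 and -0.14. The same arrangement of libraries was seen as in mRpS7. mRpS30, placed in the large subunit in mammalian structures in spite of its name, had values of -0.46, 0.48, 0.005 and -0.025 and an effect of -0.95 in MEF2 RNAi flies. mRpL18, a protein of the central protuberance, had values of -0.41, 0.51, -0.052 and -0.052 and an effect of -0.92. In these latter genes the w1118 libraries were alike on the deposited scale, where the whole distance lay between the MEF2 RNAi libraries. Relative to all genes the w1118 effects of mRpS30 and mRpL18 were -0.32 and -0.35, and those in MEF2 RNAi flies -0.58 and -0.56.

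At the other end stood 4 genes of which 3 belong to the large subunit. mRpL51 (chromosome 2L, 8516753 to 8517380, minus strand), which has no bacterial counterpart, had values of -0.095, 0.17, 0.11 and -0.19 and an effect of -0.27 (fold change 0.829) in MEF2 RNAi flies. mRpL32 had values of -0.11, 0.19, 0.15 and -0.23 and an effect of -0.30, and mRpL15 had values of -0.15, 0.20, 0.12 and -0.18 and an effect of -0.34. The small subunit protein mRpS2 had values of -0.16, 0.22, 0.19 and -0.24 and an effect of -0.38. In all of these the w1118 library without RU486 was the lowest of the 4. mRpL51, mRpL32 and mRpL15 were, relative to all genes, the only members with an effect above 0 in MEF2 RNAi flies.

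In w1118 flies most members had the higher value with RU486 on the deposited scale, but by less than genes at large. The median effect was 0.23 (quartiles 0.12 and 0.32; range -0.29 to 0.48), against 0.36 over all genes, and it was above 0 in 68 of 72 members and in 93.1% of all genes. The same 68 genes were lower in MEF2 RNAi flies and higher in w1118 flies, as were 83.7% of all genes. The 4 genes with lower values with RU486 were mRpS7, mRpS5, mRpL54 and mRpS21. mRpL54, of the factor-binding stalk, had values of -0.37, 0.40, -0.070 and 0.042, and mRpS21 had values of -0.35, 0.48, -0.10 and -0.025. RU486 went with lower values in both genotypes in 5.19% of all genes. The highest w1118 effect, 0.48, was that of mRpS29.

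Once a common shift of each library was taken out, most members were lower with RU486 in both genotypes. Relative to all genes the median effect was -0.22 in MEF2 RNAi flies and -0.12 in w1118 flies. It was below 0 in 69 of 72 members in MEF2 RNAi flies (51.9% of all genes), in 58 in w1118 flies (48.6%) and in 56 in both (16.6%). Relative to the cytosolic ribosomal proteins the medians were -0.11 and -0.26. On that scale 57 members were below 0 in MEF2 RNAi flies (31.0% of all genes), all 72 in w1118 flies (80.5%) and 57 in both (25.1%). The sign of the w1118 median thus turned between the deposited scale and both rescaled ones, while that in MEF2 RNAi flies was negative on all 3.

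**Figure D3:**
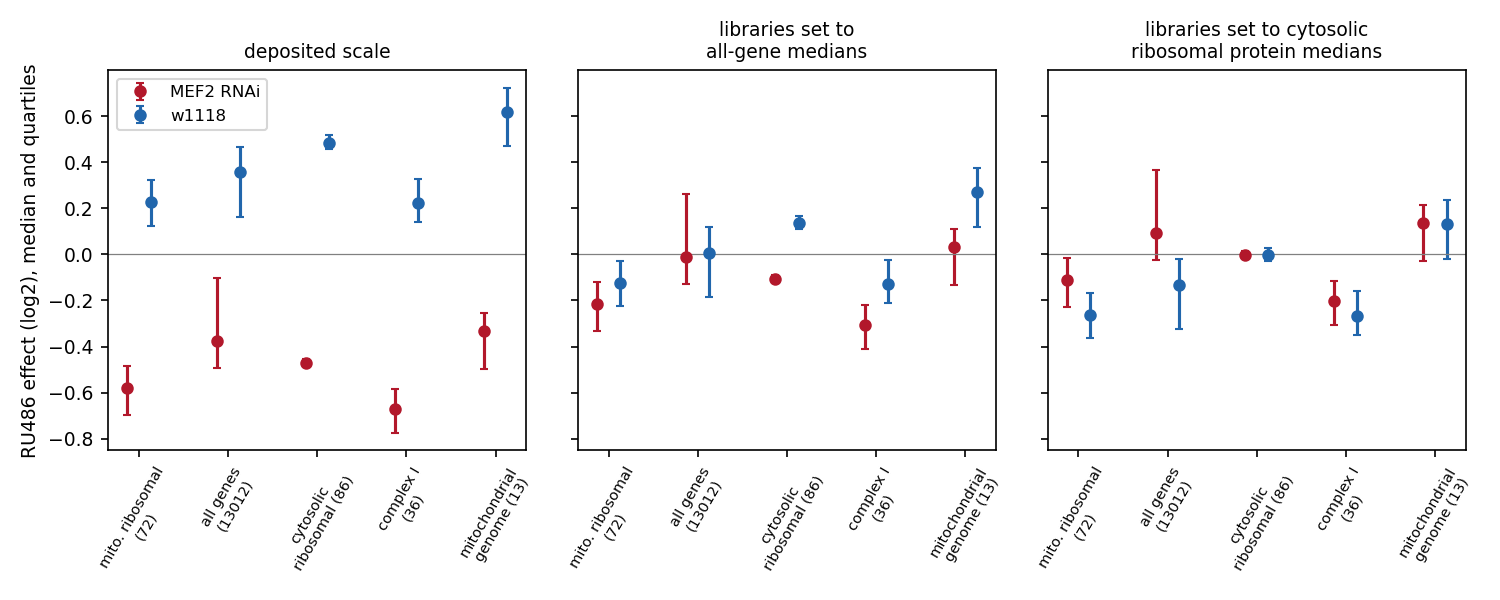
Median RU486 effect (points, log2) with quartiles (bars) in MEF2 RNAi flies (red) and w1118 flies (blue) for 5 sets of genes, as deposited, against all genes and against the cytosolic ribosomal protein genes. The mitochondrial ribosomal and complex I sets have both medians below 0 on the rescaled axes, whereas the genes of the mitochondrial genome have both above 0.

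The members were ranked alike in the 2 genotypes, with exceptions. Across the 72 genes the RU486 effect in MEF2 RNAi flies and that in w1118 flies, which share no library, had a Pearson r of 0.71 and a Spearman rho of 0.66. These genes share the same 4 libraries and the centring, and are not independent. Over all 13012 genes r was -0.16 and rho -0.33, over 86 cytosolic ribosomal protein genes -0.27 and 0.0026, and over 36 genes of respiratory complex I 0.18 and 0.43. mRpS7 and mRpS5 had the lowest effects in each genotype, whereas mRpL50 was low in MEF2 RNAi flies and high in w1118 flies. Adding a constant to a library does not alter these coefficients.

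**Figure D4:**
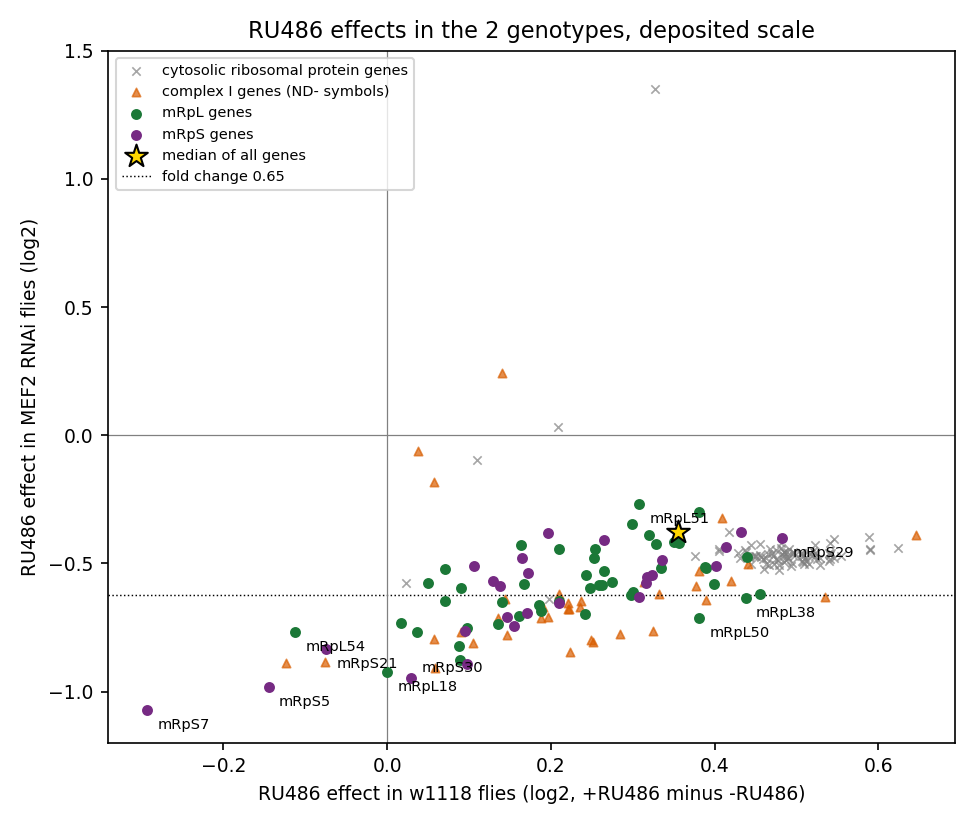
RU486 effect (log2, deposited scale) of each gene in w1118 flies (horizontal) and in MEF2 RNAi flies (vertical) for the mRpL genes (green), mRpS genes (purple), cytosolic ribosomal protein genes (grey crosses) and complex I genes (orange triangles). The 72 genes form a band from mRpS7 at -0.29 and -1.07 towards mRpS29 at 0.48 and -0.40, while most cytosolic ribosomal protein genes sit in 1 cluster near 0.49 and -0.47.

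The difference between genotypes, the RU486 effect in MEF2 RNAi flies minus that in w1118 flies, ranked the genes otherwise. Its median was -0.84 on the deposited scale (range -1.09 to -0.58), against -0.78 over all genes. Relative to all genes the median was -0.13, with 55 members below 0 (57.0% of all genes), and relative to the cytosolic ribosomal proteins it was 0.11, with 7 members below 0 (18.6%). Its sign therefore depended on the reference, and only mRpL12, mRpL35, mRpL38, mRpL45, mRpL50, mRpS14 and mRpS30 were below 0 on all 3 scales.

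The lowest differences were those of mRpL50, mRpL35, mRpL38 and mRpS14. mRpL50, a large subunit protein without a bacterial counterpart (chromosome 3L, 7243080 to 7243933, minus strand), had values of -0.29, 0.42, 0.13 and -0.25 and a difference of -1.09. mRpL35 had values of -0.25, 0.37, 0.17 and -0.29, and mRpL38, of the central protuberance, had values of -0.31, 0.33, 0.21 and -0.23, each with a difference of -1.07. In these 3 genes the deposited w1118 effect was among the higher ones (0.38 to 0.46), so that the genotypes lay far apart in both directions. Relative to all genes the w1118 effects of mRpL50, mRpL35 and mRpL38 were 0.032, 0.11 and 0.089. Relative to the cytosolic ribosomal proteins they were -0.11, -0.032 and -0.050. mRpS14, of the head of the small subunit, reached its deposited difference of -0.99 differently. It had values of -0.37, 0.52, -0.025 and -0.12, and thus a w1118 effect of only 0.097.

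The differences nearest to 0 were those of mRpL51 (-0.58), mRpS6, mRpL34 and mRpL13. mRpS6 had values of -0.21, 0.18, 0.11 and -0.083 and a difference of -0.58. mRpL34 had values of -0.16, 0.27, 0.026 and -0.14, and mRpL13 had values of -0.25, 0.27, 0.026 and -0.045, both with a difference of -0.59. mRpS7, the lowest in each genotype taken alone, lay in mid-range here at -0.78.

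Without RU486, when the driver is not induced, the genotypes also differed, but the sign of the median difference depended on the reference. MEF2 RNAi flies minus w1118 flies had a median of 0.45 over the members and 0.38 over all genes before rescaling. Relative to all genes the median was 0.082, and 64 of 72 members were higher in MEF2 RNAi flies (52.5% of all genes). Relative to cytosolic ribosomal proteins it was -0.10, with 8 members higher (10.5%), namely mRpL11, mRpL18, mRpL35, mRpL38, mRpL45, mRpL50, mRpS10 and mRpS14. With RU486 the same comparison gave -0.36 over the members and -0.36 over all genes, -0.015 relative to all genes and 0.046 relative to the cytosolic ribosomal proteins. On the all-gene scale 43 members were then lower in MEF2 RNAi flies, against 53.2% of all genes. These comparisons use the same 4 libraries as the RU486 effects. In the same units, 60 of 72 members were highest in MEF2 RNAi flies without RU486 (29.4% of all genes), 39 were lowest in MEF2 RNAi flies with it (28.2%) and 25 in w1118 flies with it (16.4%).

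The values of the subunits overlapped. Genes were assigned to a subunit by symbol, so that mRpS30 was counted in the small one. The RU486 effect in MEF2 RNAi flies had a median of -0.58 in the mRpL genes and -0.57 in the mRpS genes. Of these, 18 of 46 and 11 of 26 genes passed the fold limit on the deposited scale, and none did on either rescaled one. In w1118 flies the medians were 0.25 and 0.17. The same was seen by origin in MEF2 RNAi flies, where the 44 proteins with a bacterial counterpart and the 28 without one both had a median of -0.58, with 16 and 13 genes past the limit. Their medians in w1118 flies were 0.19 and 0.26.

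By place in the ribosome, the group medians in MEF2 RNAi flies lay between -0.64 and -0.57, closer together than the genes within any group. The stalk receives the translation factors, and of its 4 proteins mRpL54 and mRpL10 passed the fold limit. mRpL10, at the base of the stalk, had values of -0.32, 0.38, 0.048 and -0.11. mRpL12, the mobile stalk protein, had values of -0.29, 0.28, 0.20 and -0.19, and mRpL11, of the centre that stimulates the GTPases, had values of -0.14, 0.33, 0.12 and -0.32. In mRpL11 the lowest library was w1118 without RU486, and in the others it was MEF2 RNAi with RU486.

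Of 5 proteins that reach towards the peptidyl transferase centre or the start of the tunnel, mRpL2, mRpL3, mRpL16 and mRpL27 passed the limit and mRpL4 did not. Their median effects were -0.70 in MEF2 RNAi flies and 0.19 in w1118 flies. mRpL16 had values of -0.37, 0.36, 0.071 and -0.064, and mRpL4 had values of -0.25, 0.26, 0.19 and -0.20. In mRpL4 both w1118 values lay nearly as far from 0 as the MEF2 RNAi values, with the opposite sign. The lowest and highest of the 5 effects in MEF2 RNAi flies were -0.74 (mRpL16) and -0.51 (mRpL4).

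Around the opening of the exit tunnel 4 of 8 genes passed, namely mRpL24, mRpL44, mRpL45 and mRpL47. mRpL45, which ties the mammalian ribosome to the inner membrane, had the lowest effect of these, with values of -0.39, 0.49, -0.0035 and -0.092 and an effect of -0.88. This group had the lowest w1118 median of the 5 places, 0.11. Relative to the cytosolic ribosomal proteins, all 8 genes had effects below 0 in both genotypes. That was not particular to the tunnel, since it also held for every stalk gene, 79.2% of all members and 25.1% of all genes. In the central protuberance, mRpL18, mRpL27 and mRpL38 passed among 6 genes, and the median was -0.61. In the head of the small subunit, mRpS7, mRpS14, mRpS31, mRpS33 and mRpS35 passed among 9 genes. The head held the lowest effect of all (mRpS7, -1.07) and one of the highest (mRpS29, -0.40).

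**Figure D5:**
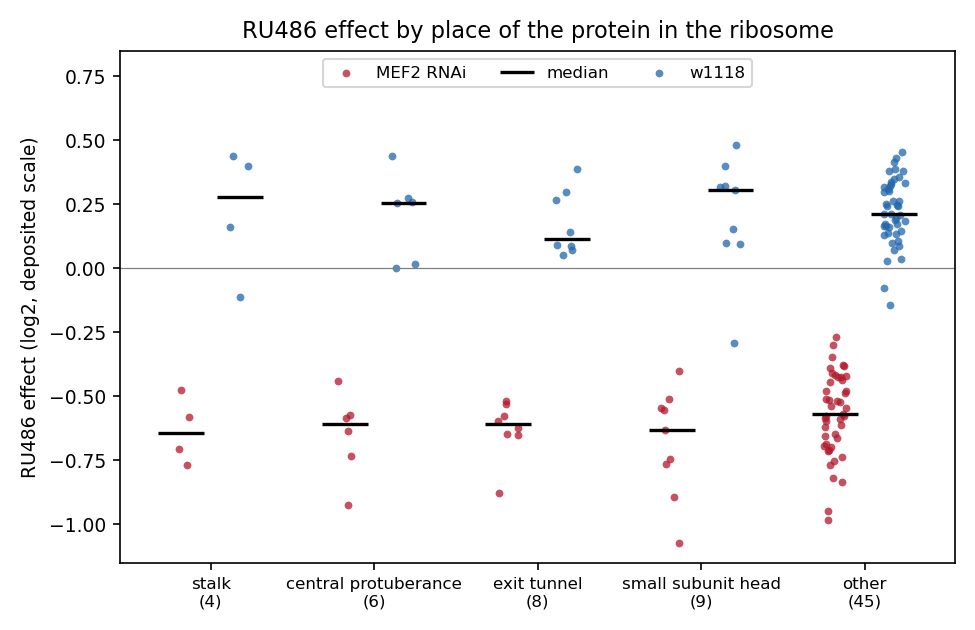
RU486 effect (log2, deposited scale) of each gene in MEF2 RNAi flies (red) and w1118 flies (blue), by the place of the protein in the ribosome, with the number of genes in brackets and a black line at each median. The medians lie between -0.64 and -0.57 in MEF2 RNAi flies and between 0.11 and 0.31 in w1118 flies, and the genes of different places overlap.

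The 3 genes related to bacterial S18 had like values, and none passed the limit. mRpS18A had values of -0.24, 0.30, 0.054 and -0.12, mRpS18B had values of -0.23, 0.25, 0.071 and -0.093, and mRpS18C had values of -0.25, 0.33, 0.12 and -0.19. Their effects in MEF2 RNAi flies were -0.54, -0.48 and -0.58. Mitochondrial ribosomal proteins that carry other names fell outside the rule by name. Of these, tko, which encodes the S12 protein, had values of -0.23, 0.34, -0.0036 and -0.10, and bonsai, which encodes the S15 protein, had values of -0.31, 0.29, 0.15 and -0.13. Their effects in MEF2 RNAi flies, -0.57 and -0.59, were close to the median of the 72 genes.

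The 72 genes are dispersed over the genome in the BDGP6 annotation of Ensembl release 115, with 12 on chromosome arm 2L, 11 on 2R, 17 on 3L, 21 on 3R and 11 on X. The build used by the authors is not given in the sources used here. The median effect in MEF2 RNAi flies was between -0.63 (X) and -0.57 (2L) on every arm. Of the 72 genes, 42 overlap another annotated gene, 40 of them on the opposite strand only, and whether strand was used in counting is not given in the sources used here. Genes with and without such an overlap had medians of -0.62 and -0.58, and 20 of 42 and 9 of 30 passed the fold limit. In 37 of 44 pairs of a member and its overlapping gene the member had the lower effect in MEF2 RNAi flies, with medians of -0.62 for members and -0.39 for their partners. In w1118 flies the medians of these pairs were 0.21 and 0.38. Exon length had a median of 783 bases (327 to 2078). Across the 72 genes its log10 had a Pearson r of -0.28 with the effect in MEF2 RNAi flies and -0.012 with that in w1118 flies. With the difference between genotypes r was -0.37.

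The other parts of the mitochondrial translation system had similar medians in MEF2 RNAi flies on the deposited scale. In w1118 flies their medians were higher than the 0.23 of the mitochondrial ribosomal protein genes. The all-gene median there was 0.36. Of 10 genes for translation factors, mEFTu1, mEFTs, mRF1 and CG14480 passed the fold limit, with medians of -0.56 in MEF2 RNAi flies and 0.29 in w1118 flies. mRF1, the release factor, had values of -0.43, 0.36, 0.16 and -0.10 and an effect of -0.79, and mEFTu1, the elongation factor that delivers tRNAs, had values of -0.35, 0.29, 0.16 and -0.11. Of the 10 genes, 7 were below 0 in both genotypes relative to all genes. Of 18 genes for mitochondrial tRNA synthetases, their relative Slimp and the glutamyl-tRNA amidotransferase, ArgRS-m, CysRS-m, PheRS-m and Slimp passed, and the medians were -0.55 and 0.34. PheRS-m, which charges the phenylalanine tRNA, had the lowest effect of the list, with values of -0.51, 0.44, 0.10 and -0.033. Slimp had values of -0.39, 0.47, -0.042 and -0.042, an arrangement like that of mRpL18. Of 15 genes that maintain or transcribe the mitochondrial genome or handle its RNA, TFAM, mTTF, mTerf3 and rswl passed, with medians of -0.54 and 0.36. TFAM, which packages and transcribes mitochondrial DNA, had values of -0.41, 0.38, 0.18 and -0.15. In these last sets 8 of 18 (44.4%) and 5 of 15 genes (33.3%) were below 0 in both genotypes relative to all genes. The same held for 77.8% of the mitochondrial ribosomal protein genes and 16.6% of all genes.

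The messenger RNAs that this ribosome translates come from the mitochondrial genome. The 13 genes for proteins in the mitochondrial genome had median effects of -0.33 in MEF2 RNAi flies and 0.62 in w1118 flies on the deposited scale. Against all genes these were 0.031 and 0.27, against -0.22 and -0.12 for the 72 ribosomal protein genes, and none of the 13 was below 0 in both genotypes. In MEF2 RNAi flies alone 6 of the 13 were below 0, as most of the ribosomal protein genes were, from mt:CoI at -0.21 to mt:ND5 at -0.071. None passed the fold limit. Respiratory complex I, which is built from proteins of both genomes, gave medians of -0.67 and 0.22 over its 36 nuclear genes, of which 24 passed. After subtraction of the library medians these were -0.31 and -0.13. The cytosolic ribosomal protein genes had medians of -0.47 and 0.49, and 1 of 86 passed. Most of them also lay far closer to each other. The spread (scaled median absolute deviation) of the MEF2 RNAi effect was 0.024, against 0.156 for the mitochondrial ribosomal genes and 0.148 for complex I. This measure gives little weight to outlying genes, and the cytosolic effects ran from -0.64 (RpS15Ab) to 1.35 (RpS5b). That range was wider than the -1.07 to -0.27 of the mitochondrial ribosomal genes.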

How the data were processed

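RNA was taken with Trizol from 8 intact thoraces for each library, and libraries were made with a TruSeq stranded total RNA kit, per the labels. The authors deposited log2 values of 13012 genes, which sum to 0 over the 4 libraries of a gene to within 6.99e-15. The aligner, the counter, the genome build and the normalization are not given in the sources used here, so depth and its precision are unknown, and no interval or floor is given.

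RU486 effects were computed as differences of log2 values, on the deposited scale and after subtraction of each library's median over all genes or over cytosolic ribosomal protein genes. Because each condition had 1 library, no test was made, and sets are described by medians and counts beside those of all genes. Names are FlyBase-style symbols of the table. All 72 members matched the Ensembl release 115 annotation (BDGP6), and 10792 of 13012 symbols did. mRpL53 and a few genes of the comparison lists (waw, mtTFB1, GatC, PolG2) were not analysed here. None of the 72 genes shared all 4 values with another gene, as 1963 genes of the table did. The members and gene lists were chosen with earlier results of these data known. Named with all values are the 4 lowest and 4 highest genes by the MEF2 RNAi effect and by the difference between genotypes, the mRpS18 relatives and genes whose role is described. Places and roles of proteins come from general knowledge of bacterial and mammalian ribosomes. Alternatives were other references, other fold limits and other forms of the fold rule, and members without overlapping genes. The code was tested on simulated data. Python 3.11.15 with pandas 2.3.3, numpy 2.4.6 and matplotlib 3.10.9 was used.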

Additional observations from a re-analysis of the deposited data

Results flagged for a closer look

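The median RU486 effect of the 72 genes was -0.58 in MEF2 RNAi flies and 0.23 in w1118 flies on the deposited scale, which is opposite in sign between the genotypes. The difference was not tested, since each condition has 1 library. Over all genes the medians were -0.38 and 0.36, and 83.7% of all genes were lower in MEF2 RNAi flies and higher in w1118 flies.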

How the results depend on the processing

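No paired analysis was possible because no group has a second library to number or pair. Setting the libraries to the all-gene medians gave median RU486 effects of -0.22 in MEF2 RNAi flies and -0.12 in w1118 flies, a difference between genotypes of -0.13, and MEF2 RNAi minus w1118 medians of -0.015 with RU486 and 0.082 without it. Setting them to the cytosolic ribosomal protein medians gave -0.11, -0.26, 0.11, 0.046 and -0.10 for the same 5 quantities. By the fold limit 0 members were lower on either rescaled axis. On the deposited scale 9 of the 30 members without an overlapping gene passed it, beside 905 of all genes. A stricter limit was passed by 13 members and 349 of all genes, and a looser one by 50 members and 2599 of all genes. When the fold changes of the genotypes were divided by each other 67 members passed, as did 8269 of all genes, and when the library was set against the mean of the other 3, 2 members and 101 of all genes did. Under a reading chosen after seeing the data, in which w1118 flies show no lower value at all, 25 members passed and 802 of all genes did. The cause of these shifts beyond the change of reference was not tested. No member was higher by the fold limit under any of these settings, and the other values moved by less than 0.1 on the log2 scale. Without replicates and depth, the error of a single gene's value is unknown.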
